A study of Mus musculus with 12 samples.

Results

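Tfap2c, En2, Mab21l1, Efhd1, Tent5c, Chodl, Ahr and Prss23 are 8 of 12393 genes measured in fetal mouse kidneys grown in culture, in which beta-catenin was activated or not. They were chosen by the size of their rise on activation in the lower of 2 runs of sample numbers, among genes not usually counted as core parts of the Wnt pathway. That lower-run rise is therefore given as a description. Each gene was tested on the arrays of the higher run, which did not enter the choice.

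The activated group held 6 samples with the genotype entry beta-catenin activated, which the labels describe as kidneys with tumors. The wildtype group held 6 samples described as normal kidneys. All were of the C57BL/6 strain, and the mothers in both groups had been given tamoxifen at day 10.5 of gestation, 2 mg for every 40 g they weighed. Dissection was also at day 10.5, and culture on membranes, in medium with insulin, transferrin and selenium, lasted 3 to 4 days. The labels name neither the allele that activates beta-catenin nor the Cre driver and its cell type, do not say that samples came from separate animals, and do not say which samples had 3 and which 4 days, so p-values measure only the spread between these samples. The numbers in the sample titles fall into a lower and a higher run, each with 3 activated and 3 wildtype arrays (numbered 1 to 3 and 4 to 6 within a genotype), and the labels do not explain them.

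Beta-catenin carries the canonical Wnt signal into the nucleus, where it joins TCF/LEF factors on DNA and raises transcription of their targets. In the fetal kidney this signal acts in nephron progenitors, where it drives their conversion to early epithelium, and in the ureteric bud. The 8 genes have no common pathway. Tfap2c encodes the transcription factor AP-2 gamma, known from trophoblast, germ cell precursors and ectoderm, En2 an engrailed homeobox factor that patterns the midbrain and hindbrain, Mab21l1 a protein needed for eye development in the mouse, and Ahr the aryl hydrocarbon receptor, a ligand-activated transcription factor. Tent5c encodes a cytoplasmic poly(A) polymerase, Prss23 a secreted serine protease, Efhd1 a calcium-binding protein of mitochondria with EF-hand motifs, and Chodl (chondrolectin) a membrane protein with a C-type lectin domain. In the mouse midbrain, engrailed expression depends on Wnt1, so En2 is not remote from Wnt signalling in every tissue.

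The values are deposited array intensities, given here as log2(intensity + 16) after quantile normalisation, with 1 probe set per gene; because of the added 16, folds of dim genes are understated. Bacterial control probe sets, to which no kidney RNA should bind, read at most 5.45 on this scale, and values under that level have no certain size. Replicate arrays of the same genotype and run correlated at 0.955 to 0.981 over all genes, and no 2 arrays held identical values. Activated 2 of the lower run stood apart in RNA or labelling quality, with a log2 ratio of 5' to 3' Gapdh control signal of 0.07, against -2.58 to -1.05 in the other arrays. Leaving it out moved the lower-run differences of the 8 genes little, to between 1.30 for Prss23 and 3.66 for Tfap2c. Wildtype 2 of the lower run had a ratio of -1.12, against -2.33 and -2.13 in the other wildtype arrays of that run. Without wildtype 2 the lower-run differences lay between 1.10 for Prss23 and 3.43 for Mab21l1. In the higher run activated 6 had a ratio of -1.05, against -2.58 to -2.07 in the other arrays of that run. Without activated 6 the higher-run differences of Efhd1 and Ahr were -0.33 and 0.08. Of 13 measured kidney markers 11 or 12 lay above the bacterial level in each genotype and run, while Ret, a receptor gene of the ureteric tip, lay under it in all of them.

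Promoter windows from RefSeq, 250 bases before to 50 bases after a transcript start in build GRCm38.p6, were found for 4 of the genes, Efhd1, Tent5c, Chodl and Prss23. None was found for Tfap2c, En2, Mab21l1 and Ahr. The windows of Chodl, Efhd1 and Tent5c are shown because these genes rose by 2.19 to 3.57 in the lower run while their higher-run intervals included 0. They were searched for the TCF/LEF motif, CTTTG followed by AA, AT, TA or TT on either strand. Capitals mark matches; the Chodl window is chr16:78930698-78930997 (plus strand), that of Efhd1 chr1:87264103-87264402 (plus strand) and that of Tent5c chr3:100489143-100489442 (minus strand).
Chodl: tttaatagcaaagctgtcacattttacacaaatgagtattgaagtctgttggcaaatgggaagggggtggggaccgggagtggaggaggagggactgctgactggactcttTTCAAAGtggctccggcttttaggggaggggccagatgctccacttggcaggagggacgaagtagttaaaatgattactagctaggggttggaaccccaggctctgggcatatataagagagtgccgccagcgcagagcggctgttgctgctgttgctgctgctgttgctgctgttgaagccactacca
Efhd1: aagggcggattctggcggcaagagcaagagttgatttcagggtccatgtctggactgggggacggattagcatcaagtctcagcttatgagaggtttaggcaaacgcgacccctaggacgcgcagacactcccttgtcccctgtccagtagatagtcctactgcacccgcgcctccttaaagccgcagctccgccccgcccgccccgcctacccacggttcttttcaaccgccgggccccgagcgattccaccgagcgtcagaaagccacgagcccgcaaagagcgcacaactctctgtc
Tent5c: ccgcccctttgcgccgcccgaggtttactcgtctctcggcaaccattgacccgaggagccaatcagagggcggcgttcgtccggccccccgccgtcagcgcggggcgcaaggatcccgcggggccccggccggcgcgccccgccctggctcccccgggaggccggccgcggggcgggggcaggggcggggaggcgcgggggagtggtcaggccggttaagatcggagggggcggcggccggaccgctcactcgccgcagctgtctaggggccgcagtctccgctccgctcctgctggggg
The Chodl window held 1 TCF/LEF match, on the opposite strand, beginning at position -139 from the transcript start. The windows of Efhd1 and Tent5c and all 7 windows of Prss23 held none, and 16.9% of all 32851 promoter windows hold at least 1 match. The AHR core motif GCGTG was in 2 of the 7 Prss23 windows and in none of the other 3 genes' windows, against 32.4% of all windows. The AP-2 motif (GCC, any 3 bases, GGC) was in 2 overlapping windows of Prss23 that hold the same match, against 16.6% of all windows, and the homeobox core TAATTA was in none of these windows, against 5.29% of all. A match is a run of letters and not a site of binding, and these windows leave out any distant enhancer.

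In the lower run all 8 genes had every activated array above every wildtype array, as did 5.41% of all genes; nothing is read from this, since the genes were picked for the size of that rise. Their rises lay between 1.22 for Prss23 and 3.57 for Efhd1 on the log2 scale, with a median of 2.52 where the median of all genes was -0.03. By size of rise on this scale they took ranks 2 (Efhd1), 4 (Tfap2c), 5 (Mab21l1), 11 (Tent5c), 15 (En2), 17 (Chodl), 35 (Ahr) and 76 (Prss23) of 12393. The rule states no threshold. Just above Prss23 in that order were Adcy7 and Nacc1 (1.22 each) and just below it Trps1, Dpysl3 and Nbl1 (1.21 each), none of them picked.

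On the arrays that did not enter the choice, those of the higher run, limma called 0 of the 8 genes at an adjusted p of 0.05, against 0.00807% of all genes (1 gene), and the smallest adjusted p among the 8 was 0.261. At an unadjusted p under 0.05, 2 of the 8 passed, Mab21l1 and Tfap2c, against 6.36% of all genes. The same 2 had every activated array above every wildtype array, against 5.6% of all genes. Of the 8 differences 4 were positive and 4 negative, where 49.7% of all genes were positive, and the median of the 8 was -0.04.

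**Figure D1:**
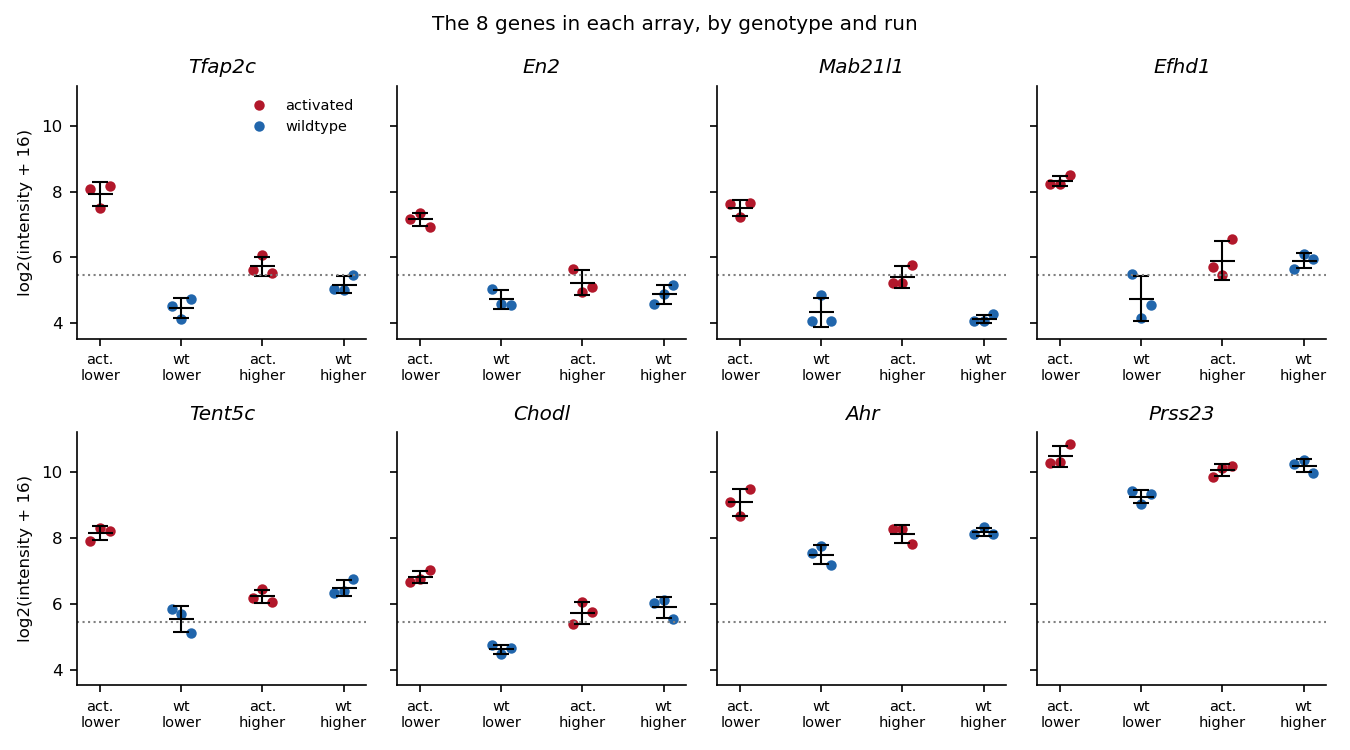
Signal of the 8 genes, log2(intensity + 16) after quantile normalisation, in each of the 12 arrays; points are arrays, the bar is the mean and SD of 3 arrays, and the dotted line is the highest bacterial control signal, 5.45. In every panel the lower-run activated arrays (left) have the highest mean, while the activated and wildtype arrays of the higher run (right) overlap for all genes except Tfap2c and Mab21l1.

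Tfap2c lay at 8.07, 7.51 and 8.18 in activated and 4.53, 4.14 and 4.72 in wildtype kidneys of the lower run, a difference of 3.46 (SE 0.30), or 11.0-fold. As deposited, those intensities were 243, 186 and 254 in activated against 5.86, 2.10 and 10.7 in wildtype kidneys, so the wildtype signal was within the range of the bacterial controls. In the higher run it read 5.60, 6.06 and 5.54 in activated and 5.04, 5.00 and 5.46 in wildtype kidneys. The 2 groups did not overlap there, with the gap between 5.54 and 5.46. Only 1 of these wildtype arrays lay above the bacterial level of 5.45, and the activated arrays at 5.60 and 5.54 lay just above it. The size of this gap is therefore uncertain. The difference was 0.56 (SE 0.24, 95% interval 0.02 to 1.11), and it did not pass limma's test (adjusted p = 0.776). Its other 2 probe sets, both dimmer, differed by 2.14 and 1.80 in the lower run and by 0.58 and 0.23 in the higher run, with groups that overlapped in the higher run.

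Mab21l1 read 7.61, 7.22 and 7.66 in activated and 4.08, 4.84 and 4.06 in wildtype kidneys of the lower run, a difference of 3.17 (SE 0.31). The higher-run arrays read 5.21, 5.22 and 5.78 in activated and 4.05, 4.05 and 4.27 in wildtype kidneys. All 3 wildtype arrays and 2 of the 3 activated arrays of the higher run lay under the bacterial level, so the size of this gap is uncertain; as deposited, the intensities were 20.1, 19.6 and 41.0 in activated against 0.493, 0.567 and 2.91 in wildtype kidneys. The difference was 1.28 (SE 0.23, 95% interval 0.76 to 1.80), rank 10 of 12393 in that run, and it did not pass limma's test over all genes (adjusted p = 0.261). The second probe set differed by 0.23 (SE 0.30) in the higher run, with groups that overlapped, and by 2.30 in the lower run.

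En2 lay at 7.17, 7.35 and 6.93 in activated and 5.04, 4.57 and 4.54 in wildtype kidneys of the lower run, a difference of 2.43 (SE 0.28). The higher-run values were 5.66, 4.95 and 5.08 in activated and 4.59, 4.88 and 5.16 in wildtype kidneys. Only 1 of these 6 arrays, activated 4, lay above the bacterial level, and the groups overlapped. The difference was 0.35 (SE 0.26, 95% interval -0.24 to 0.95, adjusted p = 0.888), and it was 0.14 without activated 4.

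Ahr, the only transcription factor of the 8 that was well above background in all 12 arrays, read 9.09, 8.68 and 9.48 in activated and 7.56, 7.76 and 7.17 in wildtype kidneys of the lower run. That is a difference of 1.59 (SE 0.24), or 3.00-fold. The higher-run values were 8.28, 8.27 and 7.81 in activated and 8.12, 8.33 and 8.12 in wildtype kidneys, with the lowest value in activated 6 and the groups overlapping. The difference was -0.07 (SE 0.16, 95% interval -0.44 to 0.30, adjusted p = 0.964). A second Ahr probe set, with means of 5.04 to 5.53 near the bacterial level, differed by only 0.24 (SE 0.32) in the lower run, where its groups overlapped, so the lower-run rise of Ahr rests on the brighter probe set.

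Prss23 was the brightest of the 8. It lay at 10.26, 10.31 and 10.86 in activated and 9.43, 9.02 and 9.34 in wildtype kidneys of the lower run, a difference of 1.22 (SE 0.18), or 2.33-fold. On the higher-run arrays it read 9.86, 10.13 and 10.20 in activated and 10.24, 10.38 and 9.97 in wildtype kidneys. These overlapping groups differed by -0.13 (SE 0.13, 95% interval -0.44 to 0.17, adjusted p = 0.91). The second probe set gave 1.36 in the lower and -0.24 in the higher run. All 12 arrays lay far above the bacterial level for this gene.

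Tent5c read 7.91, 8.31 and 8.23 in activated and 5.84, 5.70 and 5.10 in wildtype kidneys of the lower run, a difference of 2.60 (SE 0.28), or 6.06-fold. The higher-run values were 6.17, 6.46 and 6.07 in activated and 6.32, 6.39 and 6.75 in wildtype kidneys, all above the bacterial level. The groups overlapped, and the difference was -0.25 (SE 0.21, 95% interval -0.74 to 0.23, adjusted p = 0.895).

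Efhd1 rose by 3.57 (SE 0.35) in the lower run, or 11.9-fold on this scale, with 8.22, 8.21 and 8.49 in activated against 5.50, 4.16 and 4.56 in wildtype kidneys. Higher-run values were 5.70, 5.45 and 6.56 in activated and 5.66, 6.10 and 5.96 in wildtype kidneys. Of the 3 lower-run wildtype arrays 2 lay under the bacterial level, so the size of that rise and its order against those of Tfap2c and Mab21l1 are uncertain; with a pseudocount of 1 the rises were 5.06 for Efhd1, 5.20 for Tfap2c and 5.55 for Mab21l1. The higher-run activated arrays spread to both sides of the wildtype arrays, with activated 6 the highest, and both means were 5.90. The difference of 0.0013 (SE 0.31) had a 95% interval of -0.69 to 0.70 (adjusted p = 0.999).

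Chodl lay at 6.67, 6.75 and 7.02 in activated and 4.74, 4.47 and 4.65 in wildtype kidneys of the lower run, a difference of 2.19 (SE 0.26). The higher-run values were 5.37, 6.05 and 5.75 in activated and 6.03, 6.10 and 5.53 in wildtype kidneys, which overlapped. The difference was -0.17 (SE 0.26, 95% interval -0.76 to 0.42, adjusted p = 0.944).

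**Figure D2:**
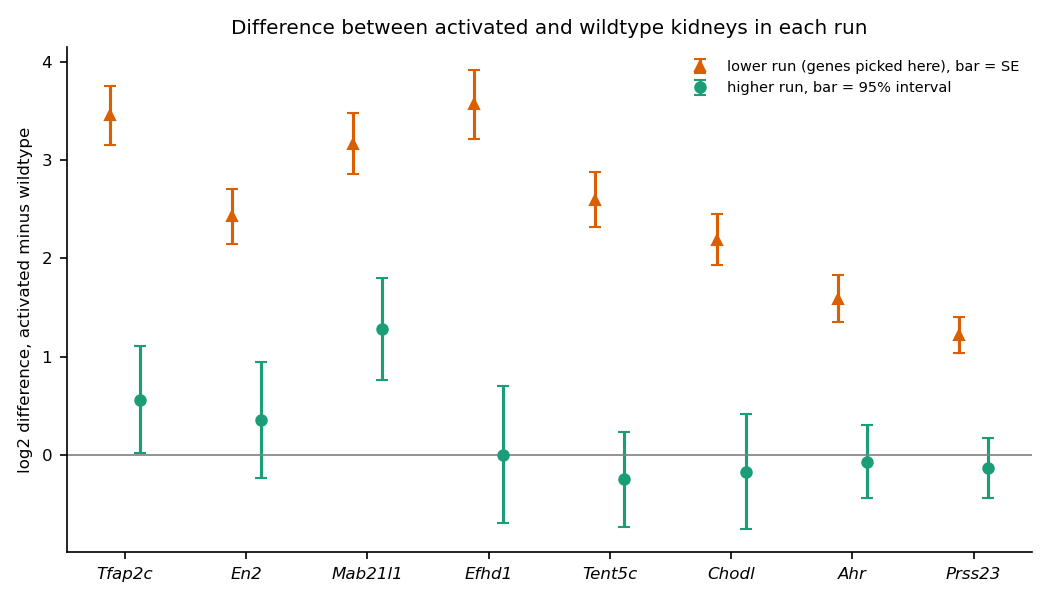
Log2 difference, activated minus wildtype, for each gene in the lower run (triangles, bar = SE), where the genes were picked, and in the higher run (circles, bar = 95% interval), 3 arrays per genotype in each run. The higher-run intervals of Mab21l1 (0.76 to 1.80) and Tfap2c (0.02 to 1.11) lie above 0, those of the other genes include 0, and every upper bound lies below the lower-run value of the same gene.

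For each of the 8 genes, the upper bound of the higher-run interval lay below the lower-run difference. The difference between the runs itself was not tested, since the lower-run values chose the genes. All 8 genes had every higher-run activated array below every lower-run activated array, against 8.72% of all genes, by between 0.41 (Prss23) and 2.41 (Efhd1) in their means. In wildtype kidneys 6 of the 8, all but En2 and Mab21l1, had every higher-run array above every lower-run array, against 12.3% of all genes. The wildtype means of the higher run exceeded those of the lower run by 1.27 for Chodl, 1.16 for Efhd1, 0.94 for Tent5c and Prss23, 0.70 for Tfap2c and 0.69 for Ahr, and the gap was 0.16 for En2 and -0.20 for Mab21l1. These counts use the lower-run arrays that chose the genes and are given as description. Prss23 and Chodl differed between the runs more in wildtype (0.94 and 1.27) than in activated kidneys (-0.41 and -1.09). For Mab21l1 and En2 the difference seen was in activated kidneys (-2.10 and -1.92). Every wildtype array of Mab21l1 and En2 lay under the bacterial level. A shift between the runs in wildtype kidneys could therefore not be read for them. For Tfap2c only 1 wildtype array, in the higher run, lay above that level. The lower-run wildtype arrays of Chodl all lay under it, and of those of Efhd1 only 1 lay above it. The sizes of the wildtype shifts of Tfap2c, Chodl and Efhd1 are therefore uncertain. The labels do not say what sets the runs apart, so the runs and anything that changed with them cannot be told apart.

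Among the 6 arrays of the higher run the 8 genes correlated in both directions. Their 28 pairs had Pearson's r from -0.876 (En2 and Chodl) to 0.889 (Chodl and Prss23), with a median of -0.092 and 12 pairs positive. Tfap2c, En2 and Mab21l1 had positive r with each other, from 0.429 to 0.724. En2 and Mab21l1 were each above the bacterial level in only 1 of the 6 arrays. Their r therefore rest largely on signal of no certain size. All these r are descriptions over 6 arrays that share both genotypes. In the lower run all 28 pairs had r of at least 0.906, which the choice of the genes fixes.

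**Figure D3:**
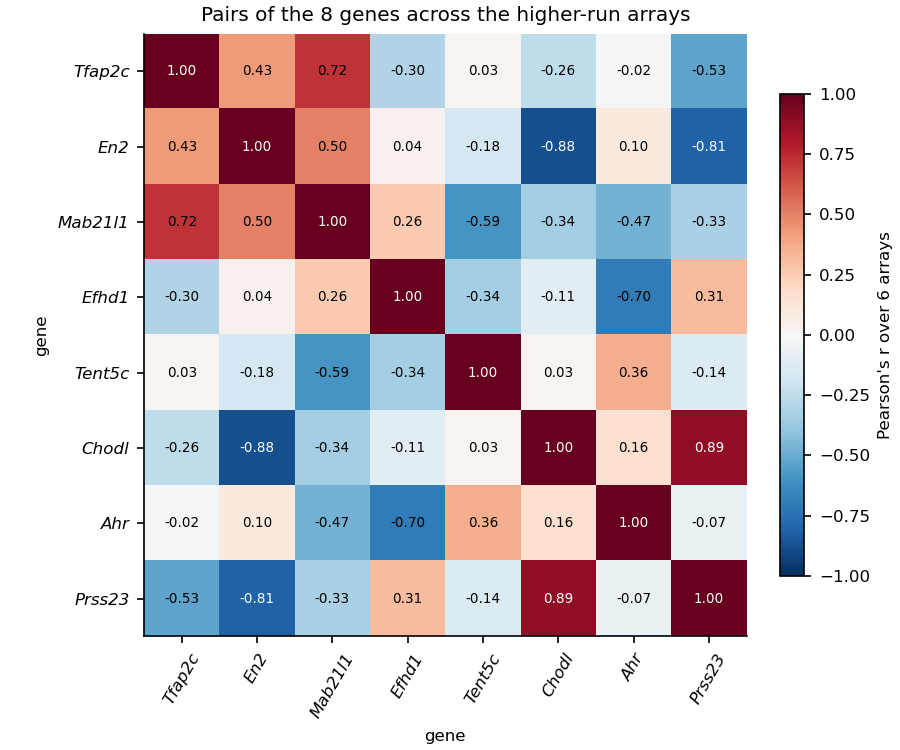
Pearson's r between each pair of the 8 genes over the 6 arrays of the higher run, from blue (negative) to red (positive). The highest value is 0.889 (Chodl and Prss23) and the lowest -0.876 (En2 and Chodl). En2 and Mab21l1 lay mostly under the bacterial level in these arrays.

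Over all 12 arrays, the genes most like each member in pattern were themselves higher in the lower-run activated arrays, which stand apart from the rest. Each r is therefore a description and is given within the higher run too. Those 6 arrays were among the 12 that picked the genes, so the higher-run r is not an independent check. Mab21l1 was most like Wif1, which encodes a secreted Wnt inhibitor (r = 0.968, 0.952 over the 6 higher-run arrays), En2 most like Axin2, a feedback inhibitor and Wnt target (r = 0.962, 0.819 within the higher run), and Tfap2c most like Srgn, a proteoglycan gene (r = 0.983, 0.555 within the higher run). Efhd1 was most like Pdzrn3 (r = 0.954, 0.485 within the higher run), Tent5c and Ahr most like Gnai1, an inhibitory G protein subunit (r = 0.953 and 0.933, but 0.354 and -0.332 within the higher run). Chodl and Prss23 were most like each other (r = 0.946, 0.889 within the higher run). Wif1 and Axin2 differed by 1.40 and 0.45 in the higher run, and neither passed limma's test there (Axin2: SE 0.23, adjusted p = 0.835). The 1 gene that did was Apcdd1 (adjusted p = 0.00689). The r of Mab21l1 and En2 within the higher run rest largely on arrays where these genes lay under the bacterial level.

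Genes that rank among the lower-run rises down to Prss23 include 68 that are not members. Their higher-run differences had a median of 0.11, with 40 of 68 positive, against 49.7% of all genes. Every activated array lay above every wildtype array for 13 of the 68, against 5.6% of all genes. The 8 genes gave a median of -0.04, with 4 of 8 positive and 2 of 8 separated in this way. The 68 include Wnt pathway genes such as Wif1 and Axin2, which the choice of the 8 left out, so the sets differ in that too. No test was made of this contrast, as the lower run chose both sets.

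In the 8 lists of related genes 62 of 93 genes were measured, and in the higher run limma called 0 of 62, with 11 (17.7%) at an unadjusted p under 0.05, against 6.36% of all genes. In the lower run 1 rose and 0 fell, against 0.331% of all genes that rose and 0.266% that fell, and 5 of 62 (8.06%) were at an unadjusted p under 0.05, against 7.07% of all genes. The gene was Htra1, a secreted serine protease like Prss23, at 7.73 in activated and 5.52 in wildtype kidneys (difference 2.21, SE 0.28, adjusted p = 0.00712), and at 7.32 and 6.63 in the higher run (0.69, SE 0.29, adjusted p = 0.776). Prss35, a close relative of Prss23, differed by 0.14 in the lower and 0.65 (SE 0.19, adjusted p = 0.644) in the higher run.

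Of 10 measured genes of the aryl hydrocarbon receptor pathway limma called 0 in either run. In the higher run, where 0.00807% of all genes were called, 3 of the 10 were at an unadjusted p under 0.05 (1 higher and 2 lower in activated kidneys), against 6.36% of all genes. In the lower run 0 of the 10 were, against 7.07% of all genes. Cyp1b1, an enzyme gene that the receptor induces, differed by -0.42 (adjusted p = 0.873) in the lower run and by -0.44 (adjusted p = 0.774) in the higher run. Arnt, the partner with which the receptor binds DNA, differed by 0.17 and 0.55 (adjusted p = 0.982 and 0.776). Cyp1a1, the best known target, differed by 0.29 and -0.28, and Tiparp, another target, by 0.14 and -0.08. Tfap2a and Tfap2b, which bind the same kind of site as Tfap2c, differed by 0.06 and -0.07 in the lower run and by -0.50 (adjusted p = 0.776) and 0.07 in the higher run. En1, the paralog of En2, differed by 0.06 and 0.08, Mab21l2 by 0.01 and 0.22, and Efhd2 by -0.15 and -0.12. The group means of En1 (4.08 to 4.43) and Mab21l2 (4.91 to 5.13) lay under the bacterial level. Whether these paralogs respond can therefore not be read. Group means of Arnt, Cyp1a1 and Tfap2b, from 5.19 to 5.76, lay near that level. Cited1, a transcriptional co-regulator and a marker of nephron progenitors, differed by -2.32 (adjusted p = 0.0724) in the lower run and by -0.33 in the higher run. Cd93, a C-type lectin gene of endothelium, differed by 0.35 in the lower and 0.94 (SE 0.24, adjusted p = 0.512) in the higher run. Others with a small unadjusted p in the higher run were Plg (-0.80, adjusted p = 0.488), Tut1 (-0.78, adjusted p = 0.553) and Wnt1 (-0.70, adjusted p = 0.774). The higher-run means of Plg, Tut1 and Wnt1, from 4.27 to 5.41, all lay under the bacterial level, so these differences have no certain size.

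**Figure D4:**
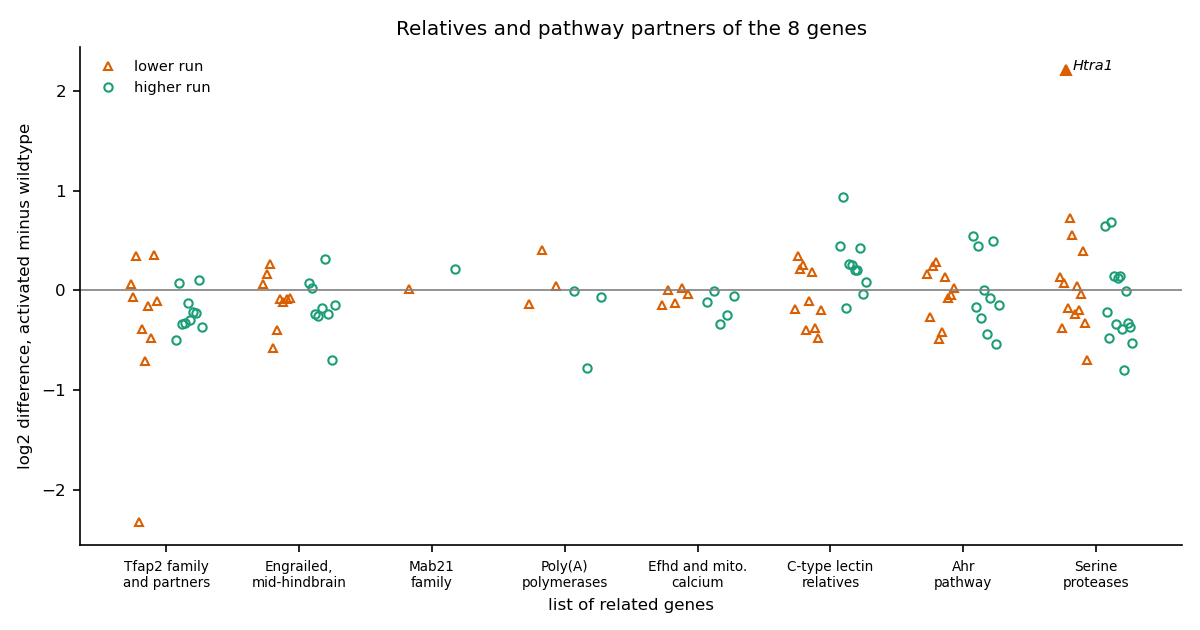
Log2 difference, activated minus wildtype, for each measured gene of 8 lists of relatives and pathway partners, in the lower run (triangles) and the higher run (circles); filled symbols passed limma's test over all genes. Htra1 in the lower run, at 2.21, is the filled symbol, and the other genes lie between -2.32 and 0.94.

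Markers of other cell types were read beside these genes. In the germ cell list, which bears on Tfap2c, Pou5f1, Dazl and Nanog lay at or under the bacterial level in all 4 groups. The mean of its 7 measured genes lay between 5.59 and 5.88 in activated and between 5.12 and 5.44 in wildtype kidneys of the lower run, and between 5.37 and 5.61 against 5.32 and 5.64 in the higher run. Prdm1, a member of that list which is also expressed outside germ cells, rose by 2.58 in the lower run (adjusted p = 0.00788) and differed by 0.70 in the higher run (adjusted p = 0.548). The other genes of the list differed by -0.68 (Nanog) to 0.90 (Dazl) in the lower run, and none passed limma's test. The higher list mean in lower-run activated kidneys thus rests largely on Prdm1. Of 8 surface ectoderm markers, 7 in activated and 6 in wildtype kidneys of the lower run lay at or under the bacterial level. Its mean lay between 4.98 and 5.11 in activated and between 5.10 and 5.28 in wildtype kidneys. The kidney list itself averaged between 7.15 and 7.66 in activated and between 7.85 and 8.05 in wildtype kidneys of the lower run, and between 7.37 and 7.49 against 7.55 and 7.80 in the higher run. Six2, which keeps nephron progenitors undifferentiated, fell by 2.01 in the lower run (adjusted p = 0.00155). Calb1 of the ureteric bud fell by 1.02 there (adjusted p = 0.00495), and Foxd1 of the stroma fell by 0.93 (adjusted p = 0.00734). Their higher-run differences were -0.29 for Six2, -0.49 for Calb1 and -0.22 for Foxd1, and none passed (adjusted p = 0.881, 0.548 and 0.784). Other bud genes of the list did not share the lower-run fall of Calb1. Wnt11 differed by 0.04 and Gata3 by -0.11 there (adjusted p = 0.995 and 0.982), and Ret, under the bacterial level, by 0.28. The endothelium list averaged 6.74 to 7.39 in activated and 6.20 to 6.93 in wildtype kidneys of the lower run, and 6.66 to 6.81 against 6.21 to 6.52 in the higher run. The macrophage and blood list differed more between the runs, with 5.98 to 6.69 in activated and 6.07 to 6.75 in wildtype kidneys of the lower run, and 7.11 to 7.45 in activated and 7.08 to 7.32 in wildtype kidneys of the higher run. The lists for neural crest and neuron, skeletal muscle, and cartilage and bone precursor averaged 5.26 to 5.42, 4.83 to 5.30 and 5.86 to 5.96 in activated and 5.40 to 5.58, 5.03 to 5.46 and 5.61 to 5.95 in wildtype kidneys of the lower run. In the higher run they averaged 5.11 to 5.42, 4.73 to 5.45 and 5.51 to 5.84 in activated kidneys. Wildtype kidneys of that run gave 5.21 to 5.26, 5.29 to 5.43 and 5.74 to 5.81. Stmn2 of the neural list fell by 1.48 in the lower run (limma, adjusted p = 0.0444) and differed by 0.09 in the higher run. Elavl4 and Tubb3 differed by -1.29 and 1.04 in the lower run and did not pass (adjusted p = 0.112 and 0.381). The part of these shifts in the results on the 8 genes was not tested. In whole kidneys more cells of a type and more RNA per cell cannot be told apart.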

How the data were processed

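RNA of 12 samples was measured on Affymetrix arrays, 1 array per sample. The deposited table gives 22690 probe sets with 1 linear intensity per array, and the number of arrays limits the precision. Every array has the same mean intensity after trimming 2% from each end (249.969 to 249.975), so the authors' deposited values had been scaled; the labels do not name the software. The labels list a pair of dyes, but each array has 1 value per probe set.

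Intensities were taken as log2(intensity + 16) and quantile-normalised over all 12 arrays, whose medians differed by 0.29 before. Genes were named from the platform annotation, using 20380 probe sets with 1 gene symbol; 691 with several, 1555 with none listed and 64 controls were left out of the tests. RefSeq's gene table (GRCm38.p6) held 12369 of the 12393 genes. A gene was represented by its brightest probe set on average. Each run was fitted alone with limma 3.58.1 in R 4.3.3, with variances that follow a trend with signal, two-sided, and Benjamini-Hochberg adjustment over all 12393 genes at 0.05. The fit was tested on simulated data. Plots were drawn with matplotlib 3.10.9.

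The 8 genes and the lists of related genes and markers were chosen with earlier results of these data known. Named besides the 8 were the 3 genes most correlated with each, of which the text gives the leading ones, up to 2 genes of each related list with the smallest p in the higher run, any called in either run, and neighbours in the lower-run ranking; Tiparp, Cyp1a1, En1, Mab21l2, Efhd2, Cited1, Tfap2b and the other paralogs were named for their role after their values were seen. Alternatives were other scalings, filters, probe set rules, variance models, pseudocounts of 1 and 64, the 5' to 3' Gapdh ratio as a covariate and leaving out each array.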

Additional observations from a re-analysis of the deposited data

Results flagged for a closer look

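The signal of Mab21l1 in wildtype 2 of the lower run, 4.84, stood apart from the other 5 wildtype arrays, whose highest value was 4.27. The gap was 0.721 of the range of the 6 arrays. As deposited the intensity was 16.2 there, against 0.493 to 2.91 in the other wildtype arrays, all under the highest bacterial control intensity of 29.0. It was the only such value in 16 groups of 6 arrays (8 genes in 2 genotypes), and chance gives about 1 in 20 groups.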

How the results depend on the processing

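In the higher run 0 of the 8 genes were called under each of the 12 other settings and each of the 6 fits without 1 array. The number of all genes called was 1 in the higher run, and it was 0 with the mean of a gene's probe sets or without a variance trend, 2 with arrays centred on medians or with a spread pooled over both runs, and 3 with robust variance moderation or with the Gapdh ratio as a covariate; without single arrays it lay between 0 and 1, at 0 without wildtype 4, wildtype 6 or activated 4. Genes with every activated above every wildtype array in the higher run numbered 2, and 0 with the dimmest 40% of genes removed, which leaves Efhd1, Tent5c, Ahr and Prss23, or when every probe set of a gene had to show it; without single arrays they numbered 2 to 3. Signs that turned were those of higher-run differences near 0: Efhd1 (0.0013) became -0.001 with quantile normalisation within the run, -0.03 with a pseudocount of 1 and -0.26 with the Gapdh ratio as a covariate, and Ahr (-0.07) became 0.02 with that covariate. Without single arrays Efhd1 ranged from -0.33 to 0.23, Ahr from -0.15 to 0.08, Chodl from -0.34 to 0.0098, En2 from 0.14 to 0.49, Tfap2c from 0.40 to 0.71, Tent5c from -0.36 to -0.12 and Prss23 from -0.25 to -0.03. The higher-run difference of Mab21l1 lay between 1.09 and 1.37 without single arrays and between 0.23 (its other probe set) and 3.61 (pseudocount of 1) in other settings, with adjusted p from 0.221 to 0.95 in those. The lower-run median of 2.52 became 2.09 without the dimmest genes, 2.19 over every probe set, 3.46 with a pseudocount of 1 and 1.55 with a pseudocount of 64; the dim wildtype signals make these sizes depend on the pseudocount. Without single arrays it lay between 2.36 and 2.67. No paired analysis was possible because the labels give the samples no shared replicate numbers.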
